A study of Mus musculus with 64 samples.

Results

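The 142 features described here were chosen for a fall in TNF in 3T3-L1 adipocytes and a rise again when ASA and TGZ followed. They come from 6664 array features whose identifiers begin with MSK, out of 6963 features in all. They were chosen on the odd-numbered replicate arrays alone, as MSK features whose group mean was at least 0.25 log units lower in TNF than in vehicle and at least 0.25 higher in TNF+ASA+TGZ than in TNF. Sizes and tests below come from the even-numbered arrays, whose values the rule did not use. In those arrays 130 of the 142 kept both signs, and 29 passed the tests of both steps. The rule was set with earlier results of these data known, and odd-numbered and even-numbered arrays may share a collection day or passage. The even-numbered arrays are therefore not a fully separate sample. Identifiers give a plate and a well, such as plate 42, row k, column 12 for MSK42k12. None of them (0 of 6963) matched a gene in the table used here, so the features are described by identifier, with no gene name, pathway or sequence.

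3T3-L1 is a mouse fibroblast line that turns into fat cells in culture. The cells were used between days 8 and 12 of differentiation, and each culture's RNA was hybridised with Cy5 against a Cy3 pool of RNA from untreated differentiated cells. The TNF+ASA+TGZ group, called the combination from here on, was first kept for 48 h with 3 ng/ml of TNF, followed by 24 h with 5 mM ASA and 10 µM TGZ, and holds 21 arrays. The TNF group had 3 ng/ml in both steps (21 arrays). The vehicle group (22 arrays) ended with 24 h in medium with 0.2% albumin. The titles call it vehicle, while the source text of those arrays also lists the first 48 h with TNF, so whether these cells ever met TNF is not settled. Nor do the labels settle whether TNF remained in the medium beside ASA and TGZ, so addition of the drugs and removal of TNF cannot be told apart. All groups are cultures of 1 cell line. Adipocyte marker genes could not be checked without gene names.

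TNF is an inflammatory cytokine that makes cultured fat cells resistant to insulin and lowers many transcripts of the differentiated adipocyte. Aspirin, read here from the label ASA, is an anti-inflammatory drug known to inhibit cyclooxygenases and, at high concentration, IκB kinase, which lies between the TNF receptor and NF-κB. Troglitazone, read from TGZ, is a thiazolidinedione that activates PPARγ, the nuclear receptor that drives fat cell differentiation and insulin sensitivity. This is background on the agents, and none of it was measured for the features below.

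Values are log ratios as deposited, of which the base is not given in the sources used here. Base 2 was assumed wherever a fold is printed, and sample over pool is the likely direction. The values of each feature seem to be set relative to vehicle, so only differences between groups are read, never levels. The even-numbered arrays comprise 10 of the combination, 10 of TNF and 11 of vehicle, against 11 of each group among the odd-numbered ones. A pair of vehicle arrays stood apart. Vehicle array 6, an even one, had a spread of 0.60 log units (SD over 6963 features), against a median of 0.216 among the even-numbered vehicle arrays, and the lowest correlation between any 2 arrays was -0.707, between combination array 13 and vehicle array 6. Vehicle array 17, an odd one, had a spread of 0.593, and the well row of the features accounted for 67.4% of its variance.

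Most of the fall returned in the arrays not used for choosing. Over the 142 members the median difference between TNF and vehicle was -0.38 in the even-numbered arrays (1.30-fold lower at base 2), against -0.03 over all 6963 features. In the odd-numbered arrays, where the rule required it, the members' median was also -0.38. The later rise was smaller than in the arrays that chose the members. Between the combination and TNF the members' median difference was 0.26 in the even-numbered arrays (1.19-fold at base 2), against 0.02 over all features, while it was 0.36 in the odd-numbered arrays. Between the combination and vehicle the members' median was -0.10, against -0.03 over all features. The median SE of a single member was 0.115 for the fall and 0.117 for the rise.

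**Figure D1:**
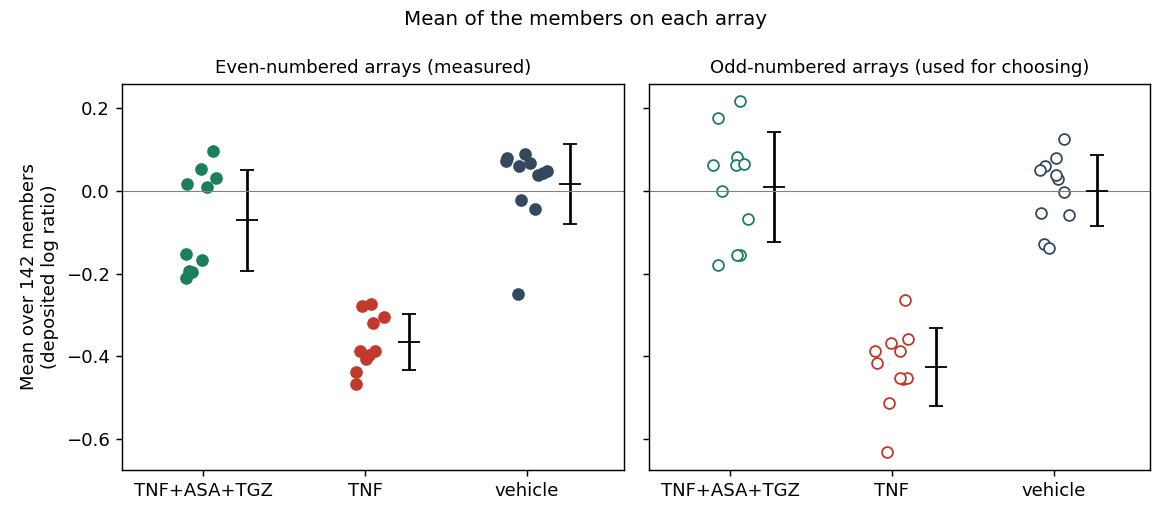
Mean log ratio over the 142 members on each array (points), with group mean and SD (bars), for the even-numbered arrays on the left and the odd-numbered arrays on the right. In the even-numbered arrays the 10 TNF arrays ran from -0.47 to -0.27, the combination arrays from -0.21 to 0.10, and all vehicle arrays but number 6 from -0.04 to 0.09.

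Averaged over the members of an even-numbered array, the combination ran from -0.21 to 0.10 with a median of -0.07, TNF from -0.47 to -0.27 with a median of -0.39, and vehicle from -0.25 to 0.09 with a median of 0.05. Every TNF array lay below every combination array and every vehicle array. The lowest vehicle array was number 6 at -0.25, and the next lowest was number 20 at -0.04. Combination arrays were spread more widely, at -0.07 ± 0.122 (SD, n = 10), than TNF arrays, at -0.37 ± 0.0672 (SD, n = 10). Combination arrays 2, 4, 10, 14 and 16 lay between -0.21 and -0.15, while arrays 6, 8, 12, 18 and 20 lay between 0.01 and 0.10, with none in between.

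Tested feature by feature with limma over all 6963 features in the even-numbered arrays (adjusted p under 0.05, Benjamini-Hochberg), 99 of 142 members (69.7%) were lower in TNF than in vehicle, where 25.0% of all features were. The rise in the combination over TNF passed in 39 members (27.5%), where 3.16% of all features were higher. Both calls were made in 29 members (20.4%), where 0.819% of all features had both, and 29 of the 57 such features in the whole table were members. These comparisons share the TNF arrays, so the joint count does not rest on separate samples. No member was called lower in the combination than in TNF (0 of 142 in limma), where 5.46% of all features were, and 1 was called higher in TNF than in vehicle, where 20.5% were. Without vehicle array 6 the counts were 103, 50 and 41, against 23.9%, 4.38% and 1.36% of all features. With the arrays scaled to a common median absolute deviation (MAD) the fall passed in 54.2% of members, the rise in 16.2% and both calls in 11.3%. After quantile normalization these shares were 59.2%, 16.9% and 12.0%. For these scalings no share of all features is given, so a change particular to the members is not shown.

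The remaining members divided by which step passed. A group of 70 was lower in TNF without passing for the rise, with medians of -0.46 between TNF and vehicle and 0.22 between the combination and TNF. Another 10 passed only for the rise, with medians of -0.13 and 0.48. For the other 33 neither step passed, with medians of -0.16 and 0.15. The 29 members with both calls had medians of -0.49 and 0.54, and their rises ran from 0.30 to 1.19.

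**Figure D2:**
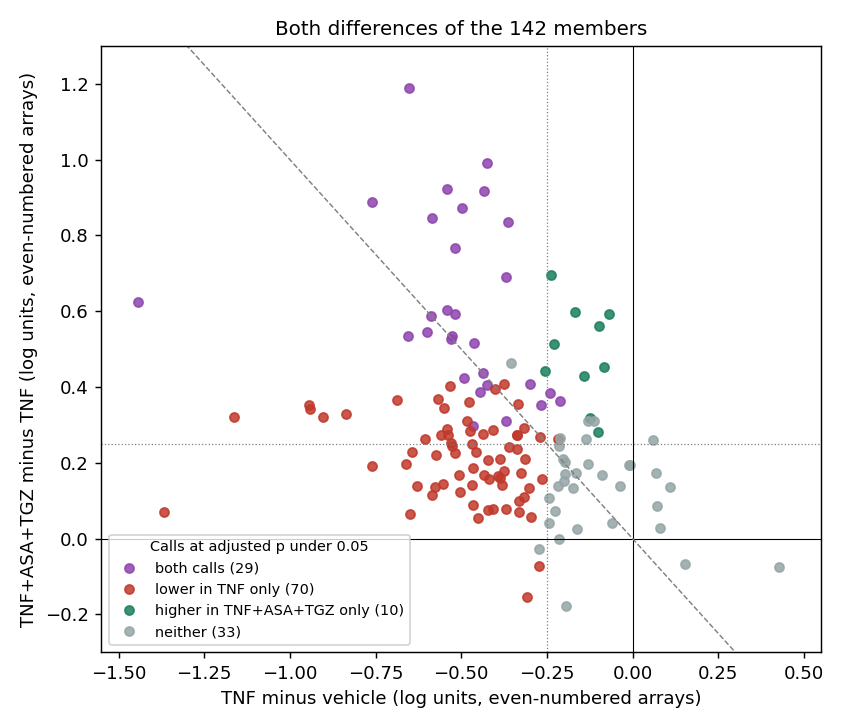
Difference between TNF and vehicle (horizontal) and between the combination and TNF (vertical) for each of the 142 members in the even-numbered arrays, in log units, coloured by the calls in limma. Dotted lines mark 0.25 and the dashed line marks a rise equal to the fall; 67 of the 70 members called only for the fall lie below the dashed line, and 130 of 142 members keep both signs.

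Both signs were kept by 130 of the 142 members. A difference at or past 0.25 in both steps, the size the rule asked for, was found again in 56 members. These are 39.4% of the members and 38.9% of the 144 MSK features that meet the rule in the even-numbered arrays. Another 43 members reached it for the fall only, 17 for the rise only and 26 for neither. In 76 members all 10 even-numbered TNF arrays lay below the vehicle mean, where 16.2% of all features did so, and in 33 all 10 combination arrays lay above the TNF mean, where 3.16% did.

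The features with the largest fall and rise in the odd-numbered arrays are given one by one, ranked there by the smaller of both differences. All 12 again fell in TNF, and 10 of them were again higher in the combination past the threshold.

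In their group means, several of these members came back close to vehicle. MSK42k12 had a lowest, median and highest value of -0.41, 0.03 and 0.30 in the combination, -0.79, -0.54 and -0.29 in TNF, and -0.21, 0.06 and 0.20 in vehicle. Its TNF arrays all lay below its vehicle arrays, while combination and vehicle arrays overlapped over most of their range. The difference was -0.59 between TNF and vehicle (SE 0.0832, adjusted p = 2.87e-06 in limma), and the later rise was 0.59 (SE 0.0852, adjusted p = 2.11e-05 in limma). Against vehicle the combination differed by 0.00 (SE 0.0832, adjusted p = 0.978 in limma), which bounds a difference without showing that the groups are equal.

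MSK04f24 ran from -0.47 over -0.07 to 0.24 in the combination, from -0.89 over -0.68 to -0.12 in TNF and from -0.64 over -0.04 to 0.21 in vehicle. Vehicle array 18 gave the value of -0.64, with the next lowest at -0.22, and combination array 18 gave the value of -0.47. The fall was -0.53 (SE 0.108, adjusted p = 0.000261 in limma) and the rise 0.54 (SE 0.110, adjusted p = 0.00187 in limma). MSK43n7 showed similar sizes, with a fall of -0.53 (adjusted p = 0.000524 in limma) and a rise of 0.53 (adjusted p = 0.0045 in limma). Array 18 was its lowest in both the combination (-0.67) and TNF (-0.99), while the lowest TNF array of MSK04f24 was number 14. For MSK04b21 the fall was -0.54 and the rise 0.60 (adjusted p = 0.000202 and 0.000474 in limma). Its lowest combination array was number 18 at -0.65, and its highest combination and TNF arrays were both number 6, at 0.40 and -0.13. In arrays from 12 upwards alone the rises of MSK04f24, MSK43n7 and MSK04b21 did not pass (adjusted p = 0.121, 0.170 and 0.0730 in limma).

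MSK13p11 had the highest adjusted p for the rise among the 10 of these 12 that passed. Its values were -0.65, 0.07 and 0.46 in the combination, -0.89, -0.54 and 0.41 in TNF and -0.19, 0.12 and 0.23 in vehicle. TNF array 16 alone lay at 0.41, with the next highest TNF array at -0.17. The rise was 0.42 (SE 0.126, adjusted p = 0.0297 in limma). It no longer passed without TNF array 2, 10 or 20, or without combination array 6, 10 or 16 (adjusted p from 0.0507 to 0.0661 in limma). With a common MAD it did not pass either (0.34, adjusted p = 0.0659 in limma). In arrays from 12 upwards alone neither the fall nor the rise passed (adjusted p = 0.133 and 0.580 in limma).

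MSK04e20 fell further and rose further. It ran from -0.35 over 0.14 to 0.53 in the combination, from -1.31 over -0.77 to -0.21 in TNF and from -0.87 over 0.04 to 0.47 in vehicle. Vehicle arrays 6 and 16 lay within the range of TNF, at -0.87 and -0.24, and the combination arrays 14 and 16 did so too, at -0.27 and -0.35. The fall was -0.76 (SE 0.149, adjusted p = 0.000166 in limma) and the rise 0.89 (SE 0.152, adjusted p = 0.000189 in limma).

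In MSK39g19 the TNF arrays stood clear of both other groups. The lowest, median and highest values were -0.12, 0.21 and 0.75 in the combination, -1.19, -0.62 and -0.31 in TNF and -0.26, -0.06 and 0.39 in vehicle. The fall was -0.58 (SE 0.117, adjusted p = 0.000218 in limma) and the rise 0.85 (1.80-fold, adjusted p = 1.6e-05 in limma). Against vehicle the combination was 0.26 higher (adjusted p = 0.0771 in limma), and this passed without vehicle array 6 (0.30, adjusted p = 0.0415 in limma) or without combination array 4 (0.30, adjusted p = 0.0449 in limma). MSK24p10 was the only other member whose TNF arrays lay clear of both other groups, which was seen after its values were known. It ran from -0.02 to 1.16 in the combination, from -0.73 to -0.20 in TNF and from -0.10 to 0.40 in vehicle.

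Members whose groups did not overlap were few. In 14 of 142 every TNF array lay below every vehicle array, where 1.09% of all features did, and in 6 every combination array lay above every TNF array, where 0.330% did.

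Some members rose past vehicle, with 16 of 142 (11.3%) called higher in limma, where 17.6% of all features were. Rising past vehicle was thus no more frequent among the members than over all features. MSK30c12 ran from 0.03 over 0.65 to 1.24 in the combination, from -1.01 over -0.48 to -0.27 in TNF and from -0.29 over 0.12 to 0.35 in vehicle. The combination arrays all lay above the TNF arrays. The fall was -0.65 (SE 0.127, adjusted p = 0.000153 in limma), the rise 1.19 (2.28-fold at base 2, adjusted p = 3.7e-07 in limma), and the combination ended 0.54 above vehicle (adjusted p = 0.00135 in limma).

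MSK14n15 had the highest standing against vehicle among all members. Its values were 0.11, 0.56 and 1.20 in the combination, -0.68, -0.43 and -0.24 in TNF and -0.30, -0.02 and 0.22 in vehicle. It fell by 0.43 (adjusted p = 0.00275 in limma) and rose by 0.99 (1.99-fold at base 2, adjusted p = 5.84e-07 in limma), which left it 0.57 above vehicle (SE 0.111, adjusted p = 0.00018 in limma).

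MSK07j24 and MSK05a4 came next in standing against vehicle. This ranking used the even-numbered values themselves, so the p-values against vehicle of the features it named are a description. MSK07j24 did not pass for a fall in the even-numbered arrays (-0.07, SE 0.0933, adjusted p = 0.561 in limma), although its difference had been -0.26 in the odd-numbered ones. Its values were 0.21, 0.43 and 0.79 in the combination, -0.46, -0.07 and 0.34 in TNF and -0.34, 0.01 and 0.13 in vehicle. The combination arrays all lay above the vehicle arrays, and the combination mean was 0.59 above TNF (adjusted p = 8.13e-05 in limma) and 0.52 above vehicle (adjusted p = 5.84e-05 in limma). MSK05a4 had 0.27, 0.53 and 1.04 in the combination, -1.08, -0.38 and 0.25 in TNF and -1.15, 0.18 and 0.39 in vehicle. Its combination arrays all lay above its TNF arrays, and vehicle array 6 gave the value of -1.15, with the next lowest at 0.04. The fall was -0.43 (adjusted p = 0.0162 in limma) and the rise 0.92 (adjusted p = 8.93e-05 in limma). It stood 0.48 above vehicle (adjusted p = 0.00961 in limma), which no longer passed with a common MAD (0.27, adjusted p = 0.10 in limma) or after quantile normalization (0.26, adjusted p = 0.0908 in limma).

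Yet other members stayed below vehicle, with 35 of 142 (24.6%) called lower in limma, where 18.8% of all features were. MSK10m14 had the largest fall of all members in the even-numbered arrays. It ran from -1.61 over -0.70 to -0.50 in the combination, from -1.98 over -1.43 to -0.29 in TNF and from -0.34 over 0.00 to 0.58 in vehicle. TNF array 6, at -0.29, was the only TNF array above -1, and combination array 16, at -1.61, was the only combination array below -0.84. The fall was -1.44 (2.72-fold at base 2, SE 0.157, adjusted p = 2.56e-08 in limma), the rise 0.62 (SE 0.161, adjusted p = 0.0124 in limma), and the combination stayed -0.82 from vehicle (adjusted p = 0.000143 in limma). The rise no longer passed with a common MAD (0.47, adjusted p = 0.0806 in limma) or after quantile normalization (0.58, adjusted p = 0.0510 in limma). It was the single member with both calls that was still below vehicle.

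MSK23l23 kept nearly the whole of its fall. The values were -1.92, -1.09 and -0.60 in the combination, -1.75, -1.13 and -0.93 in TNF and -0.30, 0.18 and 0.48 in vehicle. All combination and TNF arrays lay below all vehicle arrays. The fall was -1.37 (SE 0.125, adjusted p = 7.06e-10 in limma), and the combination lay 0.07 above TNF (SE 0.128, adjusted p = 0.812 in limma), where the difference had been 0.30 in the odd-numbered arrays. MSK29d7 fell by 1.16 and MSK19i19 by 0.94 (adjusted p = 4.73e-09 and 3.05e-07 in limma). Their differences between the combination and TNF were 0.32 and 0.34 (adjusted p = 0.0812 and 0.0647 in limma), and the combination stayed -0.84 and -0.60 from vehicle. Without vehicle array 6 the rise of both passed at unchanged sizes (adjusted p = 0.0314 and 0.0443 in limma), since the fit shares its estimate of spread between the groups. The rise of both also passed with well-row means removed (adjusted p = 0.0144 and 0.0379 in limma).

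Both remaining features of the top 12 passed for the fall alone. MSK03l8 ran from -0.63 over -0.39 to 0.21 in the combination, from -0.90 over -0.52 to -0.11 in TNF and from -0.18 over 0.02 to 0.38 in vehicle. It fell by 0.57 (adjusted p = 3.75e-05 in limma), with 0.22 for the rise (adjusted p = 0.189 in limma), which passed with well-row means removed (0.27, adjusted p = 0.0445 in limma). MSK03e15 fell by 0.48 (adjusted p = 0.0101 in limma), with 0.36 for the rise (adjusted p = 0.142 in limma), and its vehicle array 6 lay at -1.28, far from the next lowest at -0.08. Without that array the rise of MSK03e15 passed at an unchanged size (0.36, adjusted p = 0.0301 in limma).

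**Figure D3:**
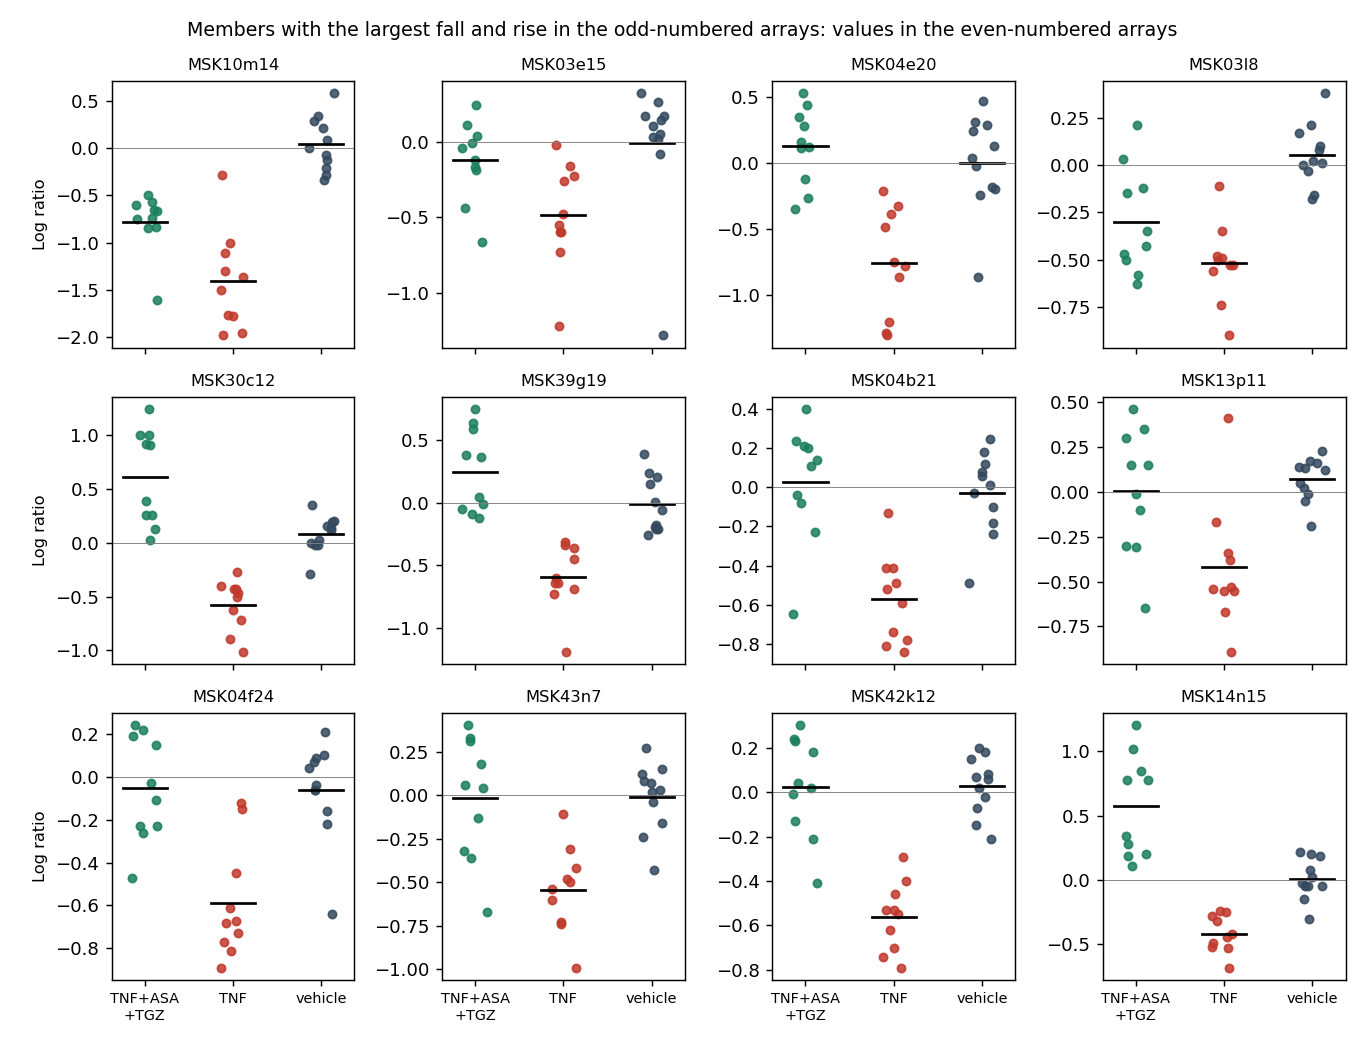
Log ratio in each even-numbered array (points) and group mean (line) for the 12 members with the largest fall and rise in the odd-numbered arrays, with 10 combination, 10 TNF and 11 vehicle arrays; scales differ between panels. In MSK42k12, MSK43n7 and MSK04f24 the combination mean lies next to the vehicle mean, in MSK30c12 and MSK14n15 above it, and in MSK10m14 and MSK03l8 below it.

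Over all members, 16 of 142 (11.3%) were higher in the combination than in vehicle in limma, where 17.6% of all features were, 35 (24.6%) were lower, where 18.8% were, and 91 did not pass either way. Of the 29 members with both calls, 7 ended above vehicle, 1 below and 21 did not pass. Of the 70 called only for the fall, 33 were still below vehicle and 0 above in limma. In 2 members every combination array lay below every vehicle array, where 1.29% of all features did. The 1044 other MSK features lowered by at least 0.25 in the odd-numbered arrays had nearly the same fall in the even-numbered ones, with a median of -0.39. They differed in the later step, which the rule fixed, with a median of 0.06 between the combination and TNF and of -0.32 between the combination and vehicle. Of these, 598 were below vehicle in the combination and 0 above in limma. No test of the difference between the lists was made.

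**Figure D4:**
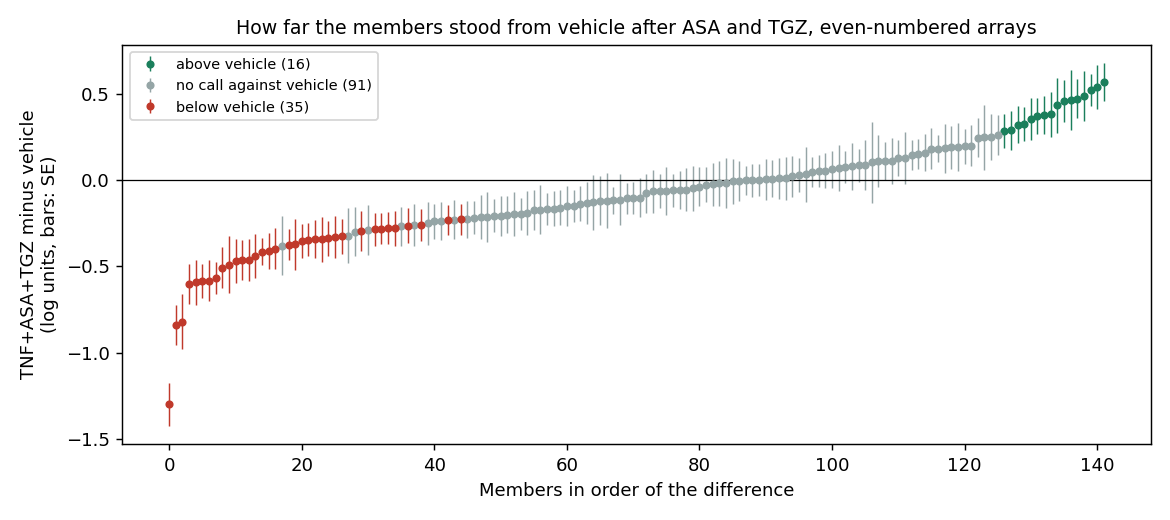
Difference between the combination and vehicle for each member in the even-numbered arrays, in order, with its SE, coloured by the call in limma. The differences run from -1.30 to 0.57, with 35 members called below vehicle, 16 above and 91 not called.

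Members near the threshold were mixed. The 4 just inside it, by the smaller of both differences in the odd-numbered arrays, were MSK04c24 at 0.255, MSK14d5 at 0.255, MSK16l24 at 0.253 and MSK27h5 at 0.252. Their differences in the even-numbered arrays were -0.64, -0.06, -0.30 and 0.07 between TNF and vehicle, and 0.23, 0.04, 0.13 and 0.09 between the combination and TNF, in the same order. The 4 just outside were MSK24d9 and MSK24h6 at 0.249 and MSK24o11 and MSK16l2 at 0.246. In the even-numbered arrays they gave -0.35, -0.56, -0.17 and -0.26 for TNF against vehicle, and 0.13, 0.03, 0.34 and 0.06 for the combination against TNF.

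The members lay on all 26 plates, in all 24 well columns and in all 16 well rows. Their share of the MSK features ran from 0.712% on plate 24 to 4.42% on plate 03, and from 0.671% in column 22 to 3.5% in column 14. Rows d, h, l and p held 57 of the 142 members, or 3.75% of their 1518 MSK features, against 2.13% in rows c, g, k and o, 1.75% in rows b, f, j and n and 1.10% in rows a, e, i and m. Whole rows shifted with the arrays. Over all MSK features of rows d, h, l and p, members or not, the median difference between TNF and vehicle was 0.06 in the even-numbered arrays and -0.07 in the odd-numbered arrays that chose the members. In rows a, e, i and m it was -0.13 and 0.05.

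The even-numbered values of the members differed by row as well. In rows d, h, l and p 4 of 57 members had both calls and the median fall was -0.27. It was 12 of 32 and -0.45 in rows b, f, j and n, and 8 of 34 and -0.35 in rows c, g, k and o. Rows a, e, i and m had 5 of 19 and -0.55. With well-row means removed these were, in the same order, 15 of 57 and -0.32, 12 of 32 and -0.44, 14 of 34 and -0.36, and 9 of 19 and -0.45. No share of all features by row is given here, so the counts do not show a difference particular to the members. Of the 12 members that lost a sign, 11 lay in rows d, h, l and p, and with well-row means removed 9 members still did, 8 of them in those rows. The 6 with the largest opposite value were all among them. MSK41p3 stood out, with 0.43 between TNF and vehicle (adjusted p = 0.0056 in limma, and 0.107 with the spread taken from all 64 arrays) and 0 of 10 TNF arrays below the vehicle mean. The other 5 were MSK17d19, MSK39d22, MSK30d24, MSK11l4 and MSK10l1, with differences from -0.31 to 0.15 between TNF and vehicle and from -0.18 to 0.14 between the combination and TNF.

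With the mean of each well row removed from every array, the same 142 members gave 106 calls for the fall, 62 for the rise and 50 for both, against 26.3%, 4.11% and 1.34% of all features. The 50 included 28 of the 29 found before, and rows d, h, l and p supplied 15 of them. When members were also chosen after this removal, an alternative added after seeing the data, there were 125, of which 111 were among the 142, and 49 had both calls. Rows d, h, l and p then held 31 members, or 2.04% of their features. Chosen without vehicle array 17, the members numbered 138, of which 42 lay in rows d, h, l and p and 29 had both calls.

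**Figure D5:**
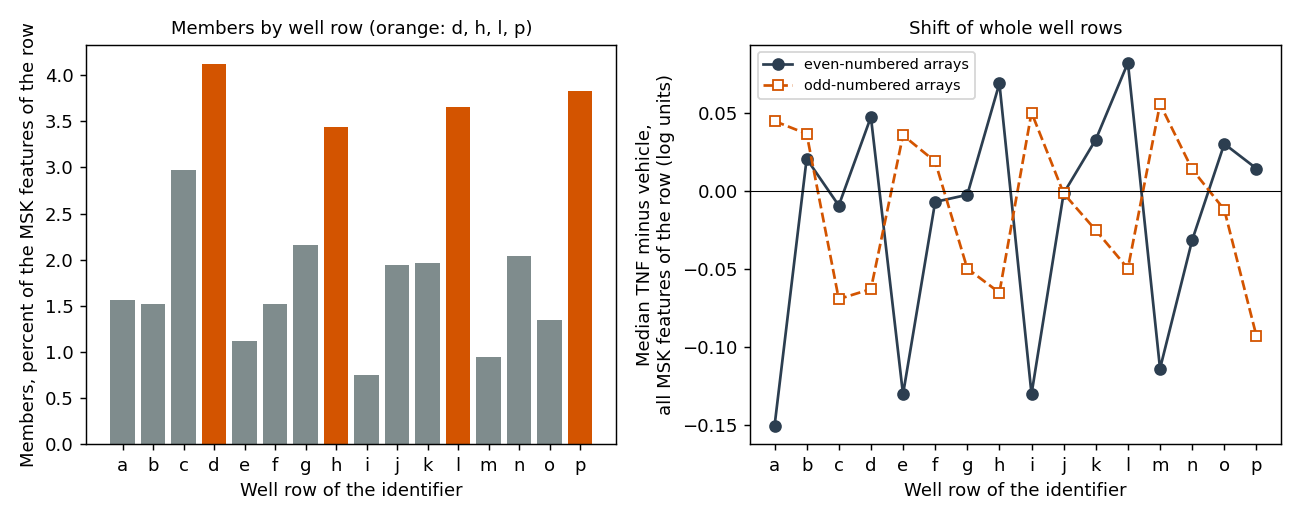
Left, members as a percent of the MSK features of each well row, with rows d, h, l and p in orange; right, the median difference between TNF and vehicle over all MSK features of each row, in log units, in the even-numbered and odd-numbered arrays. Rows d, h, l and p hold 3.44% to 4.12% of their features as members and are the 4 highest bars, and their medians lie above 0 in the even-numbered and below 0 in the odd-numbered arrays.

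Within groups the members' deviations were weakly correlated. After group means were removed, the median correlation between pairs of members over the 31 even-numbered arrays was 0.13, against 0.00 over all pairs of MSK features, and with well-row means removed it was 0.09 against 0.00. Points of such a correlation share an array, its labelling and its scaling. With rows removed, average-linkage clustering at a correlation of 0.6 put 38 members into 5 linked sets of at least 5, and left 51 members single.

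The closest pair was MSK16a17 and MSK29i1, whose deviations correlated at 0.93 in the even-numbered arrays and again at 0.93 in the odd-numbered ones. MSK16a17 ran from -0.95 over 0.23 to 0.53 in the combination, from -0.93 over -0.51 to 0.04 in TNF and from -0.36 over 0.04 to 0.66 in vehicle. MSK29i1 ran from -0.99 over 0.21 to 0.50 in the combination, from -0.83 over -0.57 to -0.03 in TNF and from -0.33 over 0.08 to 0.47 in vehicle. Their combination arrays spread widely in parallel. MSK29i1 passed for both steps, with -0.65 and 0.54 (adjusted p = 0.000537 and 0.0185 in limma), while MSK16a17 passed for the fall and not for the rise, with -0.53 and 0.40 (adjusted p = 0.00732 and 0.122 in limma). The rise of MSK29i1 no longer passed with a common MAD or after quantile normalization (adjusted p = 0.0713 and 0.0720 in limma), and that of MSK16a17 passed with well-row means removed (adjusted p = 0.0348 in limma). Whether both carry the same transcript is not given in the sources used here.

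This pair belonged to the linked set with the highest mean correlation, of 10 features, which also held MSK04b21, MSK04f24, MSK13p11, MSK42k12, MSK43n7, MSK16n21, MSK38f1 and MSK40p1. They came from 8 plates and 7 well rows. Their mean pairwise correlation was 0.72 in the even-numbered arrays and 0.70 in the odd-numbered arrays, which had no part in forming the set. Of the 10, 9 had both calls, where 20.4% of members and 0.819% of all features did. These 9 are part of the 29 members with both calls and vary together, so the 29 do not count as independent features. Their falls ran from -0.65 to -0.42 and their rises from 0.40 to 0.60. The combination means of all 10 lay between -0.13 and 0.08 of vehicle without passing that test. Averaged over the set, the combination ran from -0.51 over 0.12 to 0.37, TNF from -0.78 over -0.53 to -0.13 and vehicle from -0.22 over 0.06 to 0.17. Combination arrays 8, 18 and 20, at -0.35, -0.51 and -0.48, lay within the range of TNF. Every other even-numbered combination array lay between -0.03 and 0.37, so the mean near vehicle does not describe each array. Array 18 was the lowest in all 3 groups, and array 6 the highest in the combination and in TNF. The combination spread more than vehicle, at -0.01 ± 0.324 (SD, n = 10), against 0.02 ± 0.104 (SD, n = 11).

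A second linked set of 10 held MSK14n15, MSK30c12 and MSK24p10, which ended above vehicle, beside MSK17n13, MSK22b11, MSK24d2, MSK27j7, MSK30p13, MSK31j15 and MSK42d10. Its members correlated at 0.68 in the even-numbered and 0.48 in the odd-numbered arrays. They shared less in the sizes of the rise, which ran from 0.03 to 1.19, and the other 7 were not called against vehicle. A set of 5 with MSK39g19, MSK04b23, MSK17o22, MSK29n16 and MSK39k23 had a median rise of 0.77 and a median standing of 0.26 above vehicle. The linked sets were formed from the even-numbered values, so these sizes are a description.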

How the data were processed

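The deposited values, taken as log2 ratios of 6963 features on 64 two-colour arrays, were used as the authors deposited them. The labels give the dyes. For background correction, normalization, log base and signal over background, the sources used here say nothing. Values ran from -3.48 to 4.16 with 0 missing, and 0 of 2016 pairs of arrays were identical. In 33 pairs the correlation was under -0.3, all with a vehicle array, and no array was turned, since the dyes are labelled.

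Arrays were grouped by title. The members, the thresholds and the division into odd and even numbers were chosen with earlier results of these data known. Group means of the 31 even-numbered arrays were fitted with limma 3.58.1 (lmFit, eBayes) in R 4.3.3 on all 6963 features, with two-sided p-values adjusted by Benjamini-Hochberg within each of 3 comparisons and a threshold of 0.05. This procedure was tested on simulated data with independent normal noise and, for each feature, the same spread in all groups. The simulation held no well-row effects and no conditions shared between arrays, so it does not cover those. The fit takes arrays as independent. Odd-numbered and even-numbered arrays may share a collection day or passage (6 days and 5 passages, not tied to arrays). The p-values therefore measure the spread between these arrays and may be too small. Where same-numbered arrays of different groups share conditions, p-values of this fit, which has no block, may instead be too large.

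Features were named by rule: the 12 members largest in the odd-numbered arrays, 4 on each side of the threshold, 4 highest and 4 lowest against vehicle, up to 6 with an opposite sign, and the closest pair. Standing against vehicle, opposite sign and the closest pair were read from the even-numbered arrays. For features named so, p-values of the quantity that named them are a description. Figures were drawn with matplotlib 3.10.9. Alternatives covered scaling, blocks, spread, well rows, arrays left out and the membership rule.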

Additional observations from a re-analysis of the deposited data

Results flagged for a closer look

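Groups of 10 arrays were screened for a single array far from the others, in 68 groups (33 named features and the mean over the members, in the combination and in TNF); vehicle, with 11 even-numbered arrays, was not screened. Chance alone marks about 1 group in 20. A total of 4 groups had such an array. For MSK10m14 combination array 16 lay at -1.61, with the next at -0.84. For MSK39g19 TNF array 14 lay at -1.19, with the next at -0.73. For MSK24o11, a feature just outside the threshold, TNF array 14 lay at 0.38, with the next at 0.00. For MSK29i1 TNF array 6 lay at -0.03, with the next at -0.42. The mean over the members held no such array in either group.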

How the results depend on the processing

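Of the 142 members, 69.7% were lower in TNF, 27.5% higher in the combination, 20.4% both, and 24.6% below vehicle in the combination. In the same order, arrays 2 to 10 alone gave 35.2%, 10.6%, 6.34% and 11.3%. Arrays from 12 upwards gave 47.9%, 15.5%, 11.3% and 14.8%. A common MAD gave 54.2%, 16.2%, 11.3% and 21.1%, and quantile normalization 59.2%, 16.9%, 12.0% and 21.1%. An adjusted p of 0.01 gave 52.8%, 16.2%, 11.3% and 14.1%. A test against 0.1 log units gave 55.6%, 16.9%, 12.7% and 13.4%. With well-row means removed the shares were 74.6%, 43.7%, 35.2% and 30.3%. With members also chosen so, which was added after seeing the data, they were 80.8%, 45.6%, 39.2% and 31.2%. Except with well-row means removed, no share of all features is given beside these values, so a change particular to the members is not shown. The labels do not say what a replicate number shares. Same-numbered arrays deviated together with a correlation over 0.1 in 18 of 21 pairs of the combination and TNF, 17 of 21 of the combination and vehicle and 19 of 21 of TNF and vehicle, and 9, 6 and 11 arrays correlated best with their own number, which hints at shared conditions for some numbers. A pairing of every number was required for a blocked fit to be the one reported. With the replicate number as a block, both passed in 31.7%, and the rise of MSK16a17 passed (adjusted p = 0.0210 in limma).

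Members numbered 248 at 0.2, 82 at 0.3 and 10 at 0.5. Both calls passed in 12.9% at 0.2. At 0.5 both passed in 80%, the rise in 80%, and the medians were -0.56, 0.57 and 0.00186. Over all features, whose tests do not depend on the membership threshold, both passed in 0.819% and the rise in 3.16%. The 10 members at 0.5 are among those described one by one above, so their share is not a separate result. The cause of the changes between settings was not tested, and the settings by array number use fewer arrays.

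Leaving out each array gave 125 to 165 members, 64.8% to 79.0%, 22.5% to 35.2%, 16.2% to 28.9% and 19.7% to 32.3% of members, and medians of -0.43 to -0.36, 0.21 to 0.27 and -0.15 to -0.05. Among 33 named features no called difference turned its sign in 41 settings. Calls were lost in 56 of 990 values and in 41 of 3069 with an array left out. Both totals include differences not called at first, which cannot lose a call. The share lost among called differences is therefore higher.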
